A study of Mus musculus with 4 samples.

Results

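The 10 genes described here carry out antigen presentation on major histocompatibility complex (MHC) class I molecules. They are H2-K1, H2-D1, B2m, Tap1, Tap2, Tapbp, Psmb8, Psmb9, Psme1 and Psme2, chosen by symbol from the 18894 genes listed in the tumor and blood tables of a Drop-seq study of neutrophils. Each of the 10 passed the low-count filter of the test between tissues, which kept 3674 genes. Their values come from neutrophils of tumors and neutrophils of blood of the same 3 FVB mice, an inbred strain, without further treatment. Every mouse had received an injection of Py7160, a mammary tumor cell line of the mouse, and none was free of tumor, so blood here is blood of tumor-bearing animals. Tumors had reached about 1 cm by 2 to 3 weeks and were broken up by enzyme digestion, and blood was freed of red cells by lysis. Cells were enriched through Ly6G to about 90% and sorted as CD11b+ Ly6G+ to over 99% purity. Drop-seq captures single cells with barcoded beads in droplets and counts the 3' ends of RNA molecules as unique molecular identifiers (UMIs).

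Class I molecules display short peptides from proteins inside the cell to CD8+ T cells. The proteasome cuts proteins into peptides, the transporter TAP carries the peptides into the endoplasmic reticulum, and tapasin helps load them onto a heavy chain paired with beta-2-microglobulin. Interferons raise many of these genes in most cell types, and under interferon the proteasome exchanges its catalytic subunits for the immunoproteasome subunits, whose peptides suit class I binding.

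Mice were told apart by hashtags, antibodies that carry a DNA tag, with 1 hashtag per mouse and 1 RNA library per tissue. Tissue, library and the way the cells were released therefore cannot be told apart, and every test below weighs a difference against the spread of mice inside a library. The summed cells of mice 1, 2 and 3 numbered 106, 564 and 171 in tumor, with 70612, 385370 and 116862 UMIs, and 511, 456 and 408 in blood, with 436713, 380059 and 330296 UMIs. Median UMIs per cell were 570 to 586 for tumor and 647.5 to 671 for blood. Tumor mouse 2 stood apart in its hashtags, since 230 of its 564 cells had no hashtag call by HTODemux, another way of assigning hashtags, against 3 of 456 in blood mouse 2. No assigned barcode occurred in both libraries. All 10 neutrophil markers were detected in both tissues, with a summed level of 72564 to 86172 UMIs per 1000000 (CPM) in the tumor mice and 179030 to 206607 CPM in the blood mice. Most of this sum was S100a8 and S100a9. Il1r2, G0s2 and Hdc went the other way, with means of 3030, 1340 and 1437 CPM in tumor, against 80.1, 49.5 and 458 CPM in blood. The rest had lower means in tumor. Markers of macrophages and class II cells also moved with tissue, mainly in tumor mice 2 and 3. Of 15 such markers 14 were detected in tumor, with summed levels of 453, 4759 and 4732 CPM in mice 1, 2 and 3, and 8 in blood, with 259, 350 and 430 CPM. Ly6c2, a further monocyte marker, was left out here and below and went the other way. It stood at 170, 135 and 103 CPM in the tumor mice, against 385, 382 and 330 CPM in blood. With Ly6c2, the monocyte and macrophage markers alone summed to 467, 2040 and 2199 CPM in tumor, against 607, 626 and 621 CPM in blood. Csf1r, a marker kept in the sum, averaged 54.5 CPM in tumor and 73.6 CPM in blood. C1qa, C1qb and C1qc, which define tissue macrophages, were at 0 in blood. Markers of red cells were at 0 in tumor and summed to between 13960 and 22154 CPM in blood.

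Promoter windows of 5 members are shown because the results turn on H2-K1 and H2-D1, which share promoter sequence, on Psmb9, which shares a promoter with Tap1, and on B2m and Psmb8. Each window holds the 250 bases upstream of the RefSeq start site in GRCm38.p6, 5' to 3' on the strand of the gene, and comes from the reference strain C57BL/6, not from FVB. Windows matched 9 of the 10 members, all except Tap2. Capitals mark matches, on either strand, to 3 motifs. These are the core of an interferon-stimulated response element (GAAA, any 2 bases, GAAA), an NF-kB-like site (GGG, any 2 bases, TT, any base, CC) and a gamma-activated sequence (TTC, any 3 bases, GAA). The windows lie at chr17:34000348-34000597 on the minus strand (H2-K1), chr17:35262844-35263093 on the plus strand (H2-D1), chr2:122147437-122147686 on the plus strand (B2m), chr17:34187306-34187555 on the plus strand (Tap1) and chr17:34197945-34198194 on the plus strand (Psmb8).
H2-K1: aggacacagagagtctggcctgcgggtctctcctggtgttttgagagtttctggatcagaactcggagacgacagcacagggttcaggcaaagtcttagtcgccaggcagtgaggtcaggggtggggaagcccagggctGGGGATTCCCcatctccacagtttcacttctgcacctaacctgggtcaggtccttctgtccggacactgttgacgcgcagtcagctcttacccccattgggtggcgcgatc
H2-D1: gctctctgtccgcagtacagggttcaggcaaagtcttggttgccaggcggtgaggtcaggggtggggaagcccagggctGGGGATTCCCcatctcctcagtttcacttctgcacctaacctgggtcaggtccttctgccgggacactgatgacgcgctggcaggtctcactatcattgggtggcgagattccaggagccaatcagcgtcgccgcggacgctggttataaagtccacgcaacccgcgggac
B2m: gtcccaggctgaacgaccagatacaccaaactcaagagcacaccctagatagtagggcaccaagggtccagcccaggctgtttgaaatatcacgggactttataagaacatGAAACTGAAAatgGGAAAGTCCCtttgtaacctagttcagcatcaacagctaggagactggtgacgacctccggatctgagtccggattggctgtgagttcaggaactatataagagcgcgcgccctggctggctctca
Tap1: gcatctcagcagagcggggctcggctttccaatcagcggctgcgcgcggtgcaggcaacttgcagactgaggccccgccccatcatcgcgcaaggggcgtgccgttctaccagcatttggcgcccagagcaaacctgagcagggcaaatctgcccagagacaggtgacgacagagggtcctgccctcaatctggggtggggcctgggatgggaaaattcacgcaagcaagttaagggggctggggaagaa
Psmb8: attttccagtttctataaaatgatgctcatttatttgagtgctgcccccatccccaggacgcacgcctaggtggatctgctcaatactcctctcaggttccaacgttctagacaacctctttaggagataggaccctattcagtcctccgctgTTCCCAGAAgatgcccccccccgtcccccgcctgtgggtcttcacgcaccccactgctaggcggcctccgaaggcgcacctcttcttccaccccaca

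The heavy chain genes share most of this sequence. The window of H2-K1 from base -178 to -2 and that of H2-D1 from -238 to -62 aligned over 177 columns, of which 161 were identical (91.0%). Both hold GGGGATTCCC, at -111 to -102 in H2-K1 and at -171 to -162 in H2-D1, counted back from the start site. The B2m window holds GAAACTGAAA at -139 to -130 and, 3 bases on, GGAAAGTCCC at -126 to -117, a match on the minus strand. The Psmb8 window holds TTCCCAGAA at -97 to -89, and the Tap1 window holds no match to these 3 motifs. Among 32851 RefSeq windows of this length, the interferon-response core occurs in 2.98%, the NF-kB-like motif in 4.11% and the gamma-activated sequence in 7.02%. A further motif, CCAAT, occurs in 33.8% of the windows and in those of B2m, Tapbp, H2-K1, Psmb9, Tap1 and H2-D1. A match is a description of letters and was not tested for binding.

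By position, 7 members lie in the MHC on chromosome 17, in GRCm38 with the GENCODE vM21 annotation. H2-K1 spans 33996017 to 34000347 on the minus strand and H2-D1 35262730 to 35267499 on the plus strand. Psmb9, Tap1, Psmb8 and Tap2 sit in 1 block of 34335 bases from 34181987 to 34216321. Tap1 and Psmb9 point away from each other, with RefSeq start sites 226 bases apart, so the Tap1 window above is largely that of Psmb9 read on the opposite strand. Tapbp lies at 33915899 to 33929292. Psme1 and Psme2 lie beside each other on chromosome 14, at 55578123 to 55581529 and 55587441 to 55591113, and B2m on chromosome 2 at 122147686 to 122153083.

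Between the tissues the pathway did not move as a block. H2-K1, a classical heavy chain gene, rose about 4.97-fold in tumor neutrophils, whereas H2-D1, the other classical heavy chain gene measured, and B2m, the light chain, did not pass the test. Both immunoproteasome subunits among the members, Psmb8 and Psmb9, fell. Neither TAP subunit, nor tapasin, nor either PA28 subunit passed the test. In all, 1 member rose and 2 fell in tumor (edgeR quasi-likelihood test, Benjamini-Hochberg adjusted p under 0.05 over all genes tested). Among all genes tested 30.2% were called higher and 29.8% lower. Neither count of members exceeds this background, and 10 genes are too few to read a departure from it. The median log2 fold change was -0.11 over the members and -0.04 over all genes tested. Tumor and blood mice were fully apart for 3 of the 10 members, H2-K1, Psmb8 and Psmb9, against 63.0% of all genes tested.

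**Figure D1:**
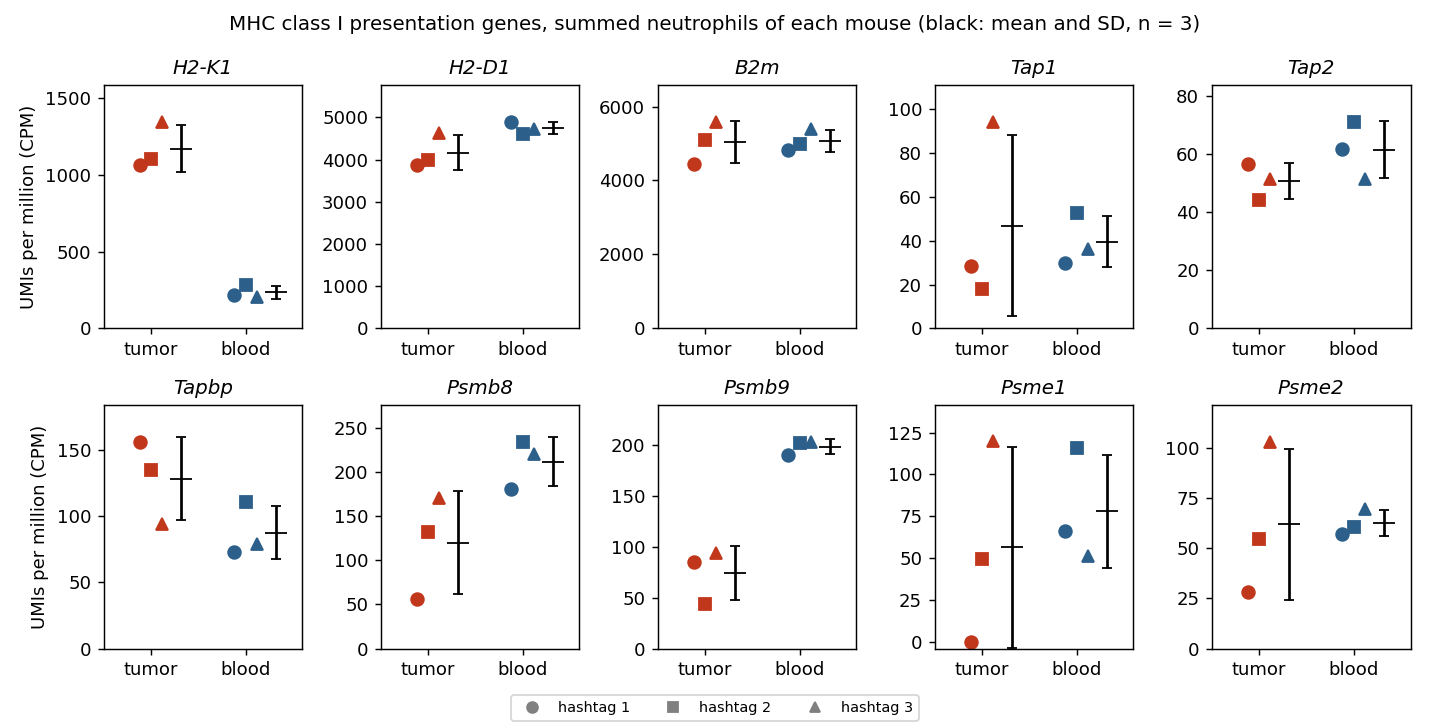
Level of each member in CPM (linear axis) in the summed neutrophils of each mouse, tumor in red and blood in blue, with the shape of the point giving the hashtag and black bars the mean and SD of 3 mice. The H2-K1 points of the tumor mice sit at 1062 to 1343, all above the blood mice at 206 to 284, whereas those of B2m overlap; the lower end of the tumor bar of Psme1 passes below 0.

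Among the chains of the class I molecule, H2-K1 separated the tissues. It stood at 1062, 1103 and 1343 CPM in tumor mice 1, 2 and 3, against 215, 284 and 206 CPM in the blood mice. The means were 1169 ± 152 CPM in tumor and 235 ± 42.8 CPM in blood (SD, n = 3 mice each), from 657 and 270 UMIs. Every tumor mouse lay far above every blood mouse. The log2 fold change was 2.34 (standard error 0.16, 95% interval 2.00 to 2.68, edgeR adjusted p = 1.66e-09). It ran from 2.04 to 2.56 over the alternatives, and was 2.45 with the mice assigned by HTODemux and 2.56 without cells that carried markers of other cell types.

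H2-D1 encodes the other classical heavy chain. It stood at 3880, 3978 and 4638 CPM in the tumor mice, against 4889, 4612 and 4729 CPM in the blood mice, so the tissues overlapped. Its log2 fold change was -0.16 (95% interval -0.40 to 0.07, edgeR adjusted p = 0.212), from 2349 UMIs in tumor and 5450 in blood. Leaving out blood mouse 2 or blood mouse 3 brought it past the threshold at -0.30 (adjusted p = 0.0474) and -0.32 (adjusted p = 0.0490). The interval of H2-D1 lies wholly below that of H2-K1.

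B2m encodes beta-2-microglobulin, the invariant light chain of every class I molecule. It stood at 4433, 5099 and 5579 CPM in the tumor mice, against 4811, 4981 and 5398 CPM in the blood mice. The tissues overlapped and their means, 5037 ± 576 and 5063 ± 302 CPM (SD, n = 3 each), were close. The log2 fold change was 0.02 (95% interval -0.22 to 0.26, edgeR adjusted p = 0.889), and its sign turned under some alternatives. At these counts, 2930 UMIs in tumor and 5777 in blood, the interval covers differences of up to 0.26 on the log2 scale.

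Because H2-K1 rose and H2-D1 did not pass, their shares were also taken within each mouse, a measure that does not depend on how the libraries were scaled and that was chosen after the levels had been seen. H2-K1 made up 21.5%, 21.7% and 22.5% of the UMIs of both genes in the tumor mice, against 4.22%, 5.80% and 4.17% in the blood mice. Each tumor mouse had several times the H2-K1 share of each blood mouse. The means were 21.9% ± 0.51 and 4.73% ± 0.93 (SD, n = 3 each), and the exact two-sided permutation p was 0.1, the lowest possible with 3 mice per tissue, and 0.2 adjusted over the 6 ratios computed. B2m made up 48.5% ± 1.43 of the UMIs of all 3 chain genes in tumor and 50.4% ± 1.86 in blood (exact permutation p = 0.2, adjusted 0.3). The UMIs of the light chain were thus close to the sum of those of both heavy chains in either tissue.

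Counts of H2 genes are uncertain in a further way. FVB carries another H-2 haplotype than the reference strain, the genes are highly polymorphic, and near-identical neighbours can share or lose reads in counting. H2-K2, a transcribed pseudogene beside H2-K1 at 33974659 to 33978827 on chromosome 17, stood at 85.0, 93.4 and 85.6 CPM in the tumor mice, against 20.6, 39.5 and 24.2 CPM in the blood mice. Its 52 UMIs in tumor and 32 in blood were far fewer than those of H2-K1. How such reads were assigned is not given in the sources used here, and their part in the H2-K1 value was not tested.

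The peptide transporter and the loading complex were low in both tissues. Tap1, a subunit of the transporter, stood at 28.3, 18.2 and 94.1 CPM in the tumor mice, against 29.8, 52.6 and 36.3 CPM in the blood mice. Tumor mouse 3 was the highest and tumor mouse 2 the lowest of the 6, so the tissues overlapped. Tumor mice 1, 2 and 3 held 2, 7 and 11 Tap1 UMIs, too few to order mice 1 and 2. The log2 fold change was -0.06 with a wide interval of -1.13 to 1.01 (edgeR adjusted p = 0.927), from 20 UMIs in tumor and 45 in blood. A change of up to about 1 on the log2 scale was not detectable for Tap1 at this depth.

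Tap2 encodes the other TAP subunit. It stood at 56.6, 44.1 and 51.3 CPM in the tumor mice, against 61.8, 71.0 and 51.5 CPM in the blood mice, and its log2 fold change of -0.33 (95% interval -1.03 to 0.37) did not pass (edgeR adjusted p = 0.413). The highest tumor mouse was above the lowest blood mouse by a few CPM. Tap2 passed when cells were required to hold at least 300 detected genes, at -1.13 (adjusted p = 0.0372).

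Tapbp encodes tapasin, which bridges TAP and the empty class I molecule. It stood at 156, 135 and 94.1 CPM in the tumor mice, against 73.3, 111 and 78.7 CPM in the blood mice. The tumor mean was above the blood mean, with tumor mouse 3 inside the blood range. The log2 fold change was 0.59 (95% interval 0.05 to 1.14, unadjusted p = 0.0349, edgeR adjusted p = 0.0571). Tapbp passed without cells that carried markers of other types, at 0.74 (adjusted p = 0.0269), and without tumor mouse 3, at 0.71 (adjusted p = 0.0361).

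Both immunoproteasome subunits among the members fell in tumor neutrophils. Psmb9, also called LMP2, takes the place of Psmb6 in the immunoproteasome. It stood at 85.0, 44.1 and 94.1 CPM in the tumor mice, against 190, 203 and 203 CPM in the blood mice. All tumor mice were below all blood mice, and the blood mice were nearly equal. The means were 74.4 ± 26.6 CPM in tumor and 198.5 ± 7.31 CPM in blood (SD, n = 3 each), from 34 and 227 UMIs. The log2 fold change was -1.64 (standard error 0.26, 95% interval -2.20 to -1.08, edgeR adjusted p = 4.76e-05) and ran from -2.10 to -1.10 over the alternatives, every one past the threshold.

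Psmb8, or LMP7, replaces Psmb5. It stood at 56.6, 132 and 171 CPM in the tumor mice, against 181, 234 and 221 CPM in the blood mice. The highest tumor mouse was just below the lowest blood mouse. The log2 fold change was -0.66 (standard error 0.24, 95% interval -1.17 to -0.14, edgeR adjusted p = 0.0274). This call was lost without tumor mouse 1, which held 4 Psmb8 UMIs, at -0.49 (adjusted p = 0.0658), without tumor mouse 2, at -0.71 (adjusted p = 0.103), with at least 90% of hashtag counts from 1 hashtag, at -0.68 (adjusted p = 0.0641), and without cells of other types, at -0.55 (adjusted p = 0.0647).

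None of the constitutive subunits that the immunoproteasome subunits replace was called lower in tumor. Psmb6, the counterpart of Psmb9, rose to 127, 104 and 145 CPM in the tumor mice, against 20.6, 21.0 and 21.2 CPM in the blood mice (log2 fold change 2.51, edgeR adjusted p = 4.58e-06). Psmb9 made up 40.0%, 29.8% and 39.3% of the UMIs of Psmb9 and Psmb6 in the tumor mice, against 90.2%, 90.6% and 90.5% in the blood mice. Most of these UMIs were thus of Psmb6 in tumor and of Psmb9 in blood, in every mouse. The exact two-sided permutation p was 0.1, the smallest possible, and 0.2 adjusted over the 6 ratios. Psmb8 made up 75.5% ± 10.4 of the UMIs of Psmb8 and Psmb5 in tumor and 85.8% ± 1.07 in blood (SD, n = 3 each), which did not separate the mice (exact permutation p = 0.4, adjusted 0.4). Psmb10, the third immunoproteasome subunit and not a member, had a mere 12 UMIs in tumor and 18 in blood. Its mean level was higher in tumor, at 24.1 ± 5.27 CPM against 15.5 ± 3.18 CPM in blood (SD, n = 3 each). It made up 33.1% ± 6.03 and 40.6% ± 5.37 of the UMIs of Psmb10 and Psmb7 (exact permutation p = 0.3, adjusted 0.36). Psmb7 was called higher in tumor (log2 fold change 1.09, edgeR adjusted p = 0.0212), whereas Psmb5 did not pass (0.28, edgeR adjusted p = 0.560). Summed, Psmb8 and Psmb9 made up 54.0% ± 6.59 of the UMIs of these and Psmb5 and Psmb6 in tumor, against 88.0% ± 0.62 in blood (exact permutation p = 0.1, adjusted 0.2).

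**Figure D2:**
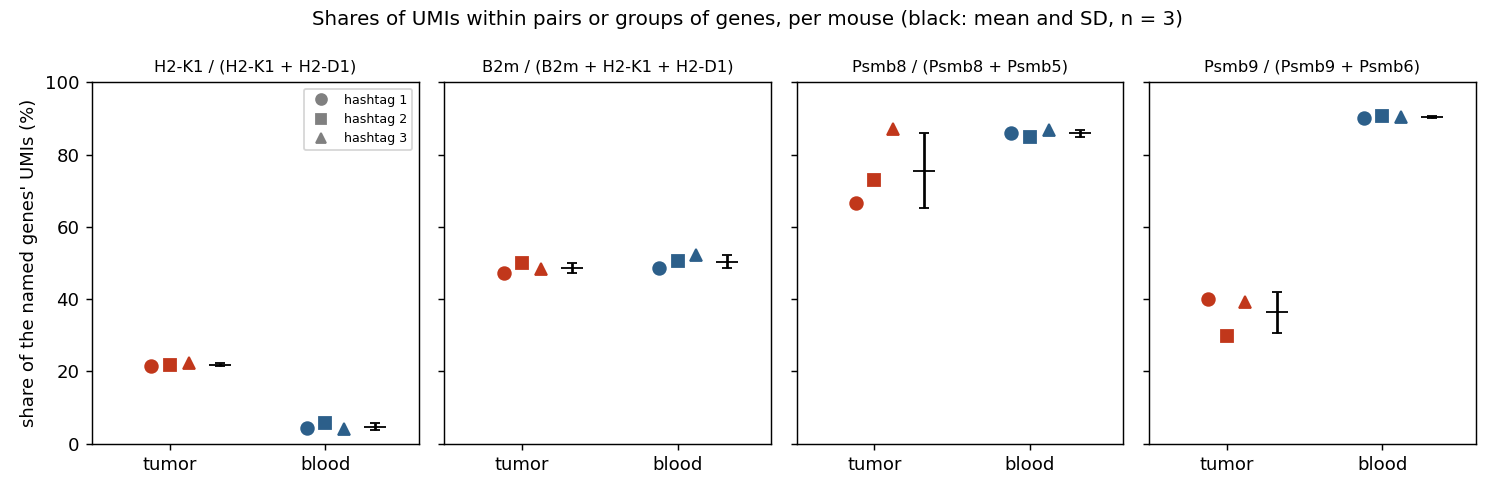
Share of UMIs within groups of related genes, in percent, for each mouse, tumor in red and blood in blue, with the shape giving the hashtag and black bars the mean and SD of 3 mice. The H2-K1 share of both heavy chain genes is 21.5% to 22.5% in the tumor mice and 4.17% to 5.80% in the blood mice, and the Psmb9 share of Psmb9 and Psmb6 is 29.8% to 40.0% and 90.2% to 90.6%.

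Psme1 and Psme2 encode the alpha and beta subunits of PA28, a ring that caps the proteasome and opens its gate. Psme1 stood at 0, 49.3 and 120 CPM in the tumor mice, against 66.4, 116 and 51.5 CPM in the blood mice. The tumor mice spanned more than the whole blood range. A count of 0 in the 70612 UMIs of tumor mouse 1 allows up to 42.5 CPM, counting error only, which is still below every blood mouse. Its log2 fold change was -0.38 (95% interval -1.36 to 0.60, edgeR adjusted p = 0.504). Psme2 stood at 28.3, 54.5 and 103 CPM in the tumor mice, against 57.2, 60.5 and 69.6 CPM in the blood mice, with a log2 fold change of 0.04 (95% interval -0.69 to 0.77, edgeR adjusted p = 0.932). Its value in tumor mouse 1 rested on 2 UMIs. Psme2b, a near-identical copy of Psme2 on chromosome 11, held 18 UMIs in tumor and 47 in blood, so reads of Psme2 may have been divided between them.

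**Figure D3:**
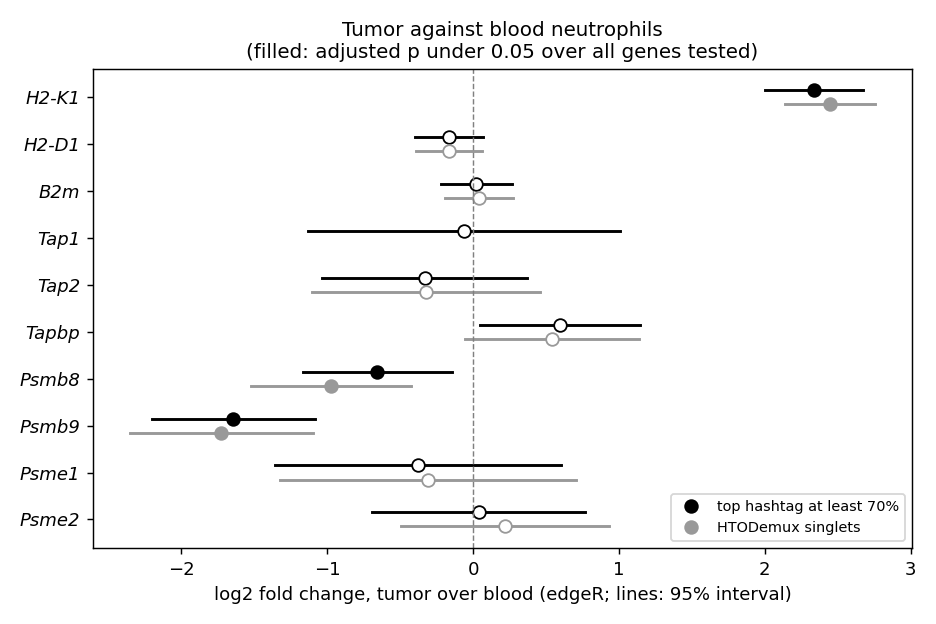
Log2 fold change of each member, tumor over blood, from the edgeR fit over 3674 genes, with 95% intervals as lines, black for mice assigned by the 70% hashtag rule and grey for mice assigned by HTODemux, where Tap1 was not among the genes tested. Filled points passed the threshold. H2-K1 stands at 2.34 and Psmb9 at -1.64, and the black intervals of B2m, H2-D1, Tap1, Tap2, Psme1 and Psme2 cross 0.

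By UMI count, which in a 3' method does not grow with transcript length, the chain genes had the highest means of the members in both tissues. B2m and H2-D1 came first, and their ranges over the mice overlapped in both tissues. H2-K1 came next, well clear of the rest in tumor, whereas in blood its 235 ± 42.8 CPM did not differ beyond the spread from Psmb8 at 212 ± 27.8 and Psmb9 at 198.5 ± 7.31 CPM (SD, n = 3). In tumor the other members, Psmb8 and Psmb9 among them, averaged between 46.9 and 128 CPM, and the spreads of neighbours overlapped. In blood the rest averaged between 39.6 and 87.5 CPM. There Tap1, at 39.6 ± 11.8 CPM, and Tap2, at 61.4 ± 9.79 CPM (SD, n = 3), lay outside each other's spread. The order of the lower members was not the same, since Tapbp stood above Psmb8 and Psmb9 by mean in tumor and below both in blood.

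The share of cells with a UMI of a member was taken at a common depth of 441 UMIs per cell, reached by thinning, which left out 209 tumor and 254 blood cells below that depth. An H2-K1 UMI occurred in 34.7% ± 2.97 of tumor cells and 8.94% ± 1.15 of blood cells (SD, n = 3 each). For H2-D1 the shares were 73.4% ± 5.24 and 85.6% ± 1.34, and for B2m 83.0% ± 1.12 and 86.8% ± 1.68. Psmb8 occurred in 4.45% ± 1.10 of tumor cells and 9.01% ± 0.90 of blood cells, and Psmb9 in 3.34% ± 1.65 and 8.42% ± 0.26. Tumor and blood mice were fully apart for these 5 members, and also for Tap2 and Psme2. Tap2 and Psme2 overlapped at a depth of 372 UMIs and with HTODemux. The share of all genes fully apart was not computed at a common depth. By CPM it was 63.0%, so no trait of the members is read from this count. Each member fully apart had an exact two-sided permutation p of 0.1, the smallest possible, and 0.143 adjusted over the 10 members. Without thinning, 366 of 841 tumor cells (43.5%, exact 95% interval 40.1 to 46.9) and 196 of 1375 blood cells (14.3%, 12.4 to 16.2) held an H2-K1 UMI, intervals that cover counting error only.

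RNA outside cells gives UMIs in every droplet, and no cell type that lacks class I was at hand, since nearly all nucleated cells express it. Barcodes of 20 to 60 UMIs, which hold little but such RNA, were used in its place. They held H2-K1 at 567 CPM in tumor (95% Poisson interval 481 to 665) and 68.8 CPM in blood (40.1 to 110), so H2-K1 was also higher outside tumor cells. At those levels a cell of 441 UMIs made up wholly of such RNA would hold an H2-K1 UMI in 22.1% of cases in tumor and 2.99% in blood, below the shares seen. For Psmb9 the same figures were 0.819% in tumor and 3.34% in blood, again below the shares seen. For Psmb8 the figure for tumor was 3.56%, against 4.45% seen and inside the spread of the mice, so a Psmb8 UMI does not mark a tumor cell as expressing it. The same holds for Tapbp in blood, at 4.02% against 4.07% ± 1.34 seen. It also holds in tumor for Tap1, at 1.15% against 2.12% ± 1.67, and Psme1, at 0.656% against 2.07% ± 2.11. In blood, Tapbp stood at 93.1 CPM outside cells and 87.2 CPM in the pooled cells. The part of outside RNA in the differences was not tested.

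Cells with macrophage or class II markers in the sort were checked for H2-K1. The 68 tumor cells with macrophage or class II markers held 68784 of the 572844 tumor UMIs and H2-K1 at 1352 CPM, against 1119 CPM in the other 773 tumor cells. Blood cells without such markers held it at 228 CPM. Only cells with 2 or more such UMIs were set apart, and the part of other cells and their RNA was not tested. T cell markers were higher in blood, where all 8 were detected, with sums of 268, 360 and 106 CPM in mice 1, 2 and 3. In tumor 2 of them were detected, with sums of 28.3, 38.9 and 8.56 CPM. T cells were not set apart on their own, and their part in the members was not tested. In tumor cells with no HTODemux call, all of them from mouse 2, H2-K1 stood at 920 CPM. In HTODemux singlets, which came from all tumor mice, it stood at 1222 CPM, so call and mouse cannot be told apart here.

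Other class I genes were set beside the members, from a list of related genes. Of 18 in the files 5 were tested, 4 rose and none fell, and the median log2 fold change was 0.99. Among all genes tested, 30.2% were called higher and 29.8% lower. H2-Q7, a nonclassical class I gene, stood at 99.1, 90.8 and 77.0 CPM in the tumor mice, against 6.87, 7.89 and 3.03 CPM in the blood mice (log2 fold change 3.81, edgeR adjusted p = 8.49e-07). H2-K2 rose by 1.72, H2-Q4 by 0.99 and H2-T23, whose product Qa-1 binds NK cell receptors, by 0.80 on the log2 scale. These genes are alike in sequence, and reads may have been divided among them.

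Genes that fold and load class I in the endoplasmic reticulum, or trim peptides, numbered 16 in the files. Of 7 tested, 5 rose and 1 fell, and the median log2 fold change was 0.93. The shares over all genes tested were 30.2% higher and 29.8% lower. Canx, the chaperone calnexin that holds new heavy chains, stood at 297, 324 and 274 CPM in the tumor mice, against 52.7, 28.9 and 42.4 CPM in the blood mice (log2 fold change 2.90, edgeR adjusted p = 1.68e-08). Calr, the chaperone calreticulin of the loading complex, rose by 1.87, and Npepps, a cytosolic aminopeptidase, by 2.02 on the log2 scale. Sec61b, a subunit of the translocon, fell by 0.90. Calnexin and calreticulin serve many glycoproteins besides class I.

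Of 34 constitutive proteasome genes 27 were tested, 7 rose and 2 fell, and the median log2 fold change was 0.42. Neither count exceeds the shares over all genes tested, 30.2% higher and 29.8% lower. Psmb6 led them at 2.51, followed by the regulatory particle genes Psmd2 at 2.35 and Psmd8 at 1.80, and Psma1, a ring subunit, fell by 0.93. Among 25 regulators of class I genes in the files, 17 were tested, 3 rose and 5 fell, again no more than those shares. Irf2, an interferon regulatory factor, stood at 85.0, 98.6 and 103 CPM in the tumor mice, against 355, 382 and 403 CPM in the blood mice (log2 fold change -1.91, edgeR adjusted p = 2.51e-07). Ifngr1, a chain of the interferon-gamma receptor, fell by 1.46, whereas Ifnar2, a chain of the type I interferon receptor, rose by 1.09. Irf1, an activator of class I genes, did not pass (log2 fold change -0.10, adjusted p = 0.692). Nlrc5, the class I transactivator, was not tested, with 6 UMIs in tumor and 2 in blood.

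Interferon-stimulated genes other than the members did not move one way. Of 31 in the files 12 were tested, 3 rose and 2 fell, and the median log2 fold change was 0.11. Neither count exceeds the 30.2% higher and 29.8% lower among all genes tested. Rsad2 rose by 3.73, Isg15 by 2.11 and Ifi47 by 1.49 on the log2 scale, whereas Gbp7 fell by 1.37 and Oasl2 by 1.32. Both tested genes of 7 class II genes rose, H2-Aa by 4.76 and Cd74 by 4.58. H2-Aa stood at 42.5, 734 and 770 CPM in tumor mice 1, 2 and 3, against 6.87, 23.7 and 39.4 CPM in the blood mice. H2-Aa and Cd74 are themselves part of the sum of macrophage and class II markers given above. H2-K1 stood at 1062, 1103 and 1343 CPM in the same tumor mice, and the part of macrophages in it was not tested.

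The members were then compared between cells with and without interferon-gene transcripts inside each tissue, where library and handling do not differ. Cells with 2 or more UMIs of the 31 interferon genes, none of them a member, are called interferon-high, and cells with 0 or 1 interferon-low. There were 22, 142 and 47 interferon-high cells in tumor mice 1, 2 and 3, against 84, 422 and 124 interferon-low cells. In the blood mice there were 164, 147 and 135 interferon-high cells, against 347, 309 and 273 interferon-low cells. The classes are ranges, not cell types: 74 tumor and 185 blood cells held exactly 2 such UMIs, and 158 and 392 held exactly 1. Depth moved with the class, with median UMIs per cell of 631 to 766 in interferon-high and 547.5 to 559 in interferon-low tumor cells, and 756 to 908.5 against 592 to 613 in blood. Its part in the results was not tested. The genes behind the class also differed between the tissues. Rsad2 and Isg15 held 281 and 262 UMIs in tumor cells, against 42 and 125 in blood cells. Oasl2 and Gbp7 held 93 and 35 UMIs in tumor cells, against 476 and 183 in blood cells. The classes of the tissues are thus not alike, and the part of this in the results was not tested.

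In tumor, Psmb8 was the only member called, and it rose in interferon-high cells, where 3.85% of 1116 genes were called, 3.41% higher and 0.448% lower. Of the members 6 could be tested. Psmb8 stood at 106, 240 and 304 CPM in interferon-high cells of mice 1, 2 and 3, against 38.7, 80.7 and 103 CPM in interferon-low cells, from 44 and 31 UMIs. It was higher in interferon-high cells of all 3 mice, though mouse 1 held 2 UMIs in each class. The log2 difference was 1.64 (95% interval 0.73 to 2.56, edgeR with mouse as a block, adjusted p = 0.0395). The call was lost with DESeq2 (adjusted p = 0.773), with HTODemux assignment (0.164), with a limit of 1 or more (0.197) or 3 or more UMIs (0.103), and with no low-count filter (0.210). The log2 difference was between 1.13 and 1.68 under these 5 settings, and Psmb8 was not among the genes tested without the block, without tumor mouse 2 or without tumor mouse 3.

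B2m stood at 5224, 6386 and 7535 CPM in interferon-high tumor cells of mice 1, 2 and 3, against 4142, 4480 and 4584 CPM in interferon-low cells. The classes did not overlap, and the log2 difference of 0.61 was just short of the threshold (95% interval 0.25 to 0.97, edgeR adjusted p = 0.0512). The log2 difference was 0.44 for H2-D1 (adjusted p = 0.222), 0.47 for H2-K1 (adjusted p = 0.354), 1.38 for Psmb9 (adjusted p = 0.348) and 0.69 for Tapbp (adjusted p = 0.520). Each of the 6 tested members thus had a positive estimate, and 5 did not pass. Macrophage and class II markers moved with the class in tumor mice 2 and 3, with 317, 8952 and 13192 CPM in interferon-high cells of mice 1, 2 and 3, against 503, 2743 and 426 CPM in interferon-low cells. Without cells that carried markers of other types, Psmb8 rose by 1.70 (adjusted p = 0.0199), B2m by 0.66 (adjusted p = 0.00287) and H2-D1 by 0.52 (adjusted p = 0.0314).

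In blood none of the 9 members tested was called, with edgeR or with DESeq2, where edgeR called 2.37% of 2535 genes, 2.01% higher and 0.355% lower. None had an unadjusted p under 0.05. Psmb8 stood at 152, 250 and 215 CPM in interferon-high blood cells of mice 1, 2 and 3, against 203, 223 and 226 CPM in interferon-low cells. The log2 difference was -0.01 (95% interval -0.43 to 0.41, edgeR adjusted p = 0.985). That of B2m was -0.14 (95% interval -0.34 to 0.06, adjusted p = 0.636) and that of H2-K1 0.21 (adjusted p = 0.747). The B2m estimate was thus above 0 in tumor and below 0 in blood. With the class set at 0.5% of UMIs or more, the Psmb8 difference in blood was 0.84 (95% interval 0.17 to 1.51). There its edgeR p was 0.0165 unadjusted and 0.537 adjusted.

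The difference of these differences, tumor minus blood, was tested as an interaction, in which 1.56% of 2888 genes were called, 1.11% higher and 0.45% lower. Psmb8 was the member called, at 1.67 on the log2 scale (95% interval 0.78 to 2.56, edgeR adjusted p = 0.0202). B2m was just short of the threshold, at 0.72 (95% interval 0.30 to 1.14, adjusted p = 0.0502). The Psmb8 call was lost with any 1 mouse number left out of both tissues (adjusted p = 0.130 without number 1, 0.470 without number 2 and 0.279 without number 3), with HTODemux (0.157), with no low-count filter (0.325), with no block (0.173) and with other limits of the class (0.326 to 0.671).

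**Figure D4:**
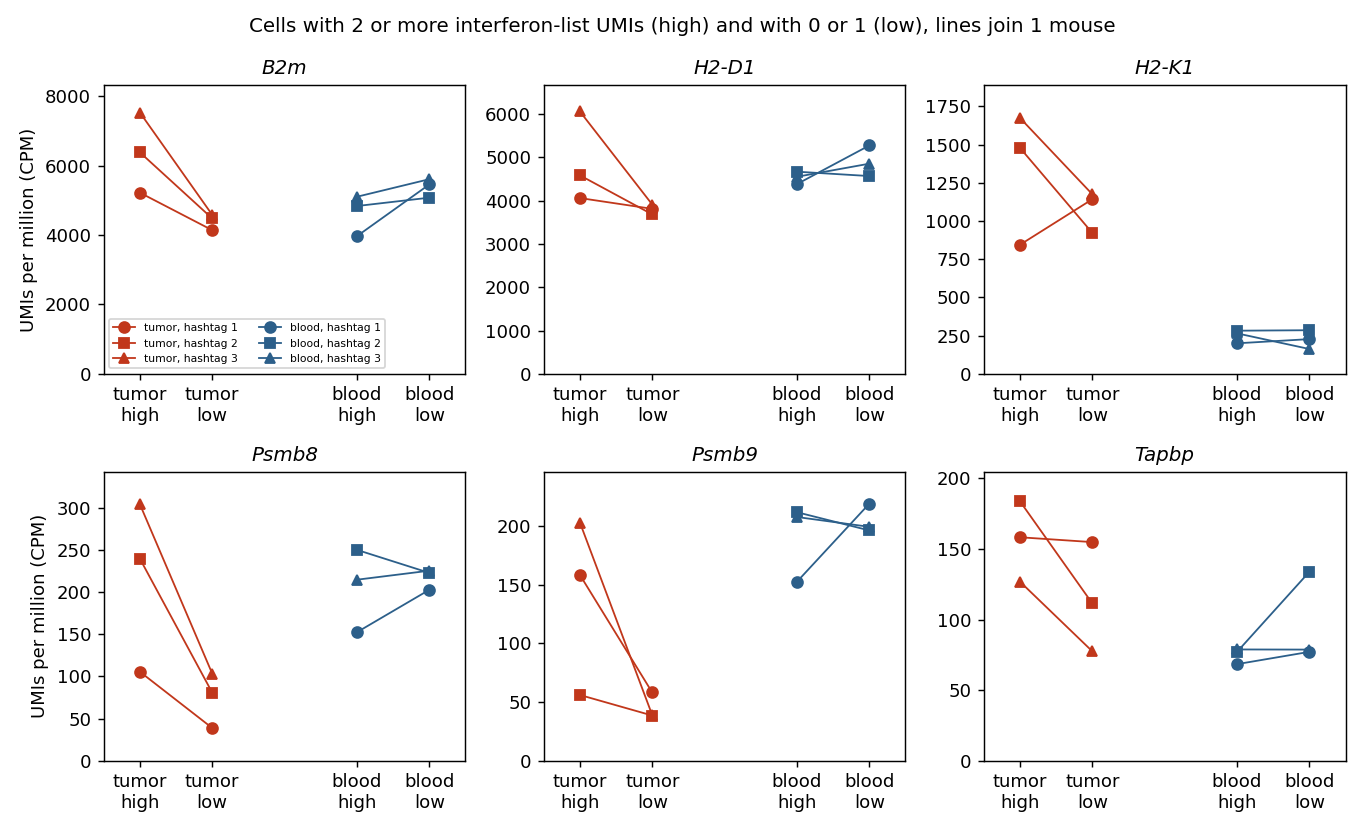
Level of 6 members in CPM (linear axis) in cells with 2 or more interferon-gene UMIs (high) and with 0 or 1 (low), tumor in red and blood in blue, with lines joining both classes of 1 mouse. Psmb8 is higher in the high class in each tumor mouse, 106 to 304 against 38.7 to 103, and shows no common direction in the blood mice.

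The genes most like the members over the 6 mouse and tissue sums were named by the correlation of their log2 CPM with the mean standardised log2 CPM of the 10 members. Among 2123 genes with at least 100 UMIs, Arpc1a (r = 0.981), N4bp2l1 (r = 0.976), Sp100 (r = 0.974) and Pdlim2 (r = 0.970) were among the 5 highest. The 6 sums share 2 libraries and differ in depth, and the member mean was lowest in tumor mouse 1, the sum of least depth, so these values are a description only.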

How the data were processed

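The authors deposited raw UMI counts per gene and cell barcode for tumor and for blood, and raw hashtag counts per barcode. Per the submitters' processing notes, STAR and mm10 were used, with no version stated. Which tool counted genes, and on which annotation, is not given in the sources used here. The tables list 15901 and 15236 genes and 10000 barcodes each, and a gene listed in only 1 table was given 0 counts in the other.

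Barcodes with at least 200 detected genes (963 in tumor, 1541 in blood) and at most 15% mitochondrial UMIs (947 and 1534) were kept. A barcode went to a mouse where it had at least 10 hashtag counts, at least 70% of them from 1 hashtag, which gave 841 tumor and 1375 blood cells. Barcodes with more mixed hashtags were thereby dropped. HTODemux called 78 of these tumor and 101 of these blood cells doublets, which were kept here and left out in its alternatives. The labels do not say that a hashtag marks the same mouse in both tissues. Correlations of the deviations of same-numbered sums were 0.02, 0.01 and -0.02, so tissues were compared unpaired. CPM was computed over all UMIs of a sum.

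UMI sums per mouse and tissue were tested in edgeR 4.0.16 (R 4.3.3) by quasi-likelihood. Genes passed filterByExpr, sums were scaled by TMM, and p-values had Benjamini-Hochberg adjustment over all genes tested at 0.05. The test was tried on simulated data. Interferon classes were fitted per tissue with the mouse as a block, and jointly for the interaction, over all genes outside the interferon list. Shares of cells were the exact expected values after thinning to 441 UMIs (for the shallower tissue, its 25th percentile) and were tested with exact permutation tests over mice. Alternatives were DESeq2 1.42.0, RLE scaling, no low-count filter, HTODemux of Seurat 5.3.0, other limits on genes, mitochondrial UMIs and hashtags, thinned cells, cells without markers of other types (at least 2 UMIs), and leaving out each sum. Ratios of member UMIs and the settings that combine the 70% rule with HTODemux were added after seeing the data.

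All members are named, and from each further list up to 4 called genes by size of fold change, at most 3 per direction; some genes that the rule names are not reported here. A few further genes (Psmb5, Psmb7, Psmb10, Irf1, Nlrc5 and Psme2b) were named after their values were seen. The members and lists were chosen with earlier results of these data known. Promoter windows are from the RefSeq table for GRCm38.p6, and positions from GENCODE vM21. Intervals and limits of a count of 0 (3 counts) cover counting error only.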

Additional observations from a re-analysis of the deposited data

Results flagged for a closer look

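Psmb8 differed between the tissues in how it moved with the interferon class, which rested on a different mix of genes in each tissue. The difference between interferon-high and interferon-low cells was 1.67 larger on the log2 scale in tumor than in blood (edgeR interaction, adjusted p = 0.0202), with the same direction in 3 of 3 tumor mice and no common direction in the blood mice. The tumor values rested on 44 UMIs in interferon-high and 31 in interferon-low cells. With the alternatives the difference ran from 0.99 to 1.71, and it passed the threshold with RLE scaling and without cells of other types only. With the class set at 0.5% of UMIs or more, Psmb8 was called in tumor (edgeR adjusted p = 0.0058). Its estimate in blood was then also above 0, at 0.84 (adjusted p = 0.537), and the interaction had an adjusted p of 0.671.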

How the results depend on the processing

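H2-K1 and Psmb9 kept their direction and side of the threshold in each of the 18 alternatives run between the tissues. Members called there numbered 2 to 4 with 1 sum left out. All genes called numbered 1343 with thinned cells, where 2070 were tested, and 1682 to 2355 with 1 sum left out, against 2205. No low-count filter shifted the median of all genes by -0.24 and leaving out a blood sum by -0.13 to -0.15 on the log2 scale.

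With the replicate block, 2221 genes were called and the 3 member calls held; B2m moved to -0.067 and Psme2 to -0.052. The numbers pair no samples by label, and same-numbered sums did not deviate together.

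Uncalled values turned sign as follows (log2). B2m, at 0.02, was -0.012 with the 70% rule and HTODemux together, -0.032 with DESeq2, -0.032 with RLE scaling, -0.12 with at least 300 genes, -0.010 with at most 10% mitochondrial UMIs, -0.27 with no filter, -0.055 with thinned cells and -0.12 to 0.12 with 1 sum left out. Psme2 was -0.012 with DESeq2, -0.035 with RLE scaling, -0.20 with no filter, -0.016 without cells of other types and -0.28 to 0.28 with 1 sum left out. Tap1 was 0.10 with DESeq2 and -0.92 to 0.83 with 1 sum left out. The share of cells with a Psme2 UMI was 0.136 percentage points higher in tumor at 372 UMIs. The Psmb10 ratio was 4.17 percentage points higher in tumor with thinned cells. The cause was not tested.

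Between interferon classes in tumor, members called numbered 2 with a limit of 1 or more UMIs, 2 with RLE scaling, 2 with a limit of 0.5% of UMIs, 3 without cells of other types, and 0 with 3 or more UMIs, DESeq2, HTODemux, no filter or no block (0 to 2 with 1 mouse left out). For the interaction they numbered 2 without cells of other types and 0 with limits of 1 or more UMIs, 3 or more or 0.5%, HTODemux, no filter, no block, or 1 mouse left out; H2-K1 turned to -0.021 with 3 or more UMIs, and ran from -0.10 to 0.40 with 1 mouse left out, and Tap2 turned to 0.21. In blood no member was called under any alternative. Psmb8 turned to 0.052 (1 or more), 0.16 (3 or more), 0.000136 (DESeq2), 0.044 (HTODemux), 0.0072 (RLE), 0.84 (0.5%) and 0.046 (without other types). H2-D1 turned to 0.0029 (1 or more) and 0.075 (0.5%), Psmb9 to 0.032 (HTODemux) and 0.32 (0.5%), Tap2 to -0.0089 (3 or more), and B2m to 0.16 and Tapbp to 0.46 (0.5%). With 1 mouse left out, H2-D1 ran from -0.10 to 0.027, Psmb8 from -0.16 to 0.12, Psmb9 from -0.17 to 0.14 and Tap2 from -0.11 to 0.35. Depth limits Tap1, Tap2, Psme1, Psme2 and Psmb9, with 20 to 35 UMIs in tumor.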
